A study of Mus musculus with 2 samples.

Results

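Integrins are the receptors through which cells hold on to the extracellular matrix and to other cells, and laminins are the matrix proteins that form the sheet of every basement membrane. The members described here are all protein-coding genes whose symbol names an integrin alpha chain, an integrin beta chain or a laminin alpha, beta or gamma chain. They number 38 of the 21474 protein-coding genes present in both gene tables, with 18 integrin alpha, 9 integrin beta and 11 laminin chains. The data are RNA-seq of whole hearts from healthy mouse embryos of strain B6NCrl at embryonic day 15.5, taken from pools of male and female embryos with no treatment. Replicate 1 came from 78 embryos and replicate 2 from 62, and each library started from 10 ng of RNA longer than 200 nucleotides. There is a single group, so the comparisons are between genes inside the libraries and between the libraries themselves.

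An integrin reaches the cell surface as a dimer of 1 alpha and 1 beta chain, and the pairing sets what it binds. Itgb1 accepts the largest set of alpha chains and carries most receptors for laminin and collagen, while the Itgb2 and Itgb7 receptors belong to leukocytes. A laminin is secreted as a trimer of an alpha, a beta and a gamma chain, of which the alpha chain holds the main binding sites for integrins. In heart, laminins surround each muscle cell and line the endothelium, and integrins couple them to the cytoskeleton.

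Expected counts on Ensembl genes summed to 41221435 in replicate 1 and 38457396 in replicate 2. A gene with an effective length of 1 kb was at 0.0308 TPM per read in the first and 0.0345 TPM in the second, where TPM is the authors' abundance unit, scaled by effective length and to a common total. The heart label was matched by its defining markers, since none of the 10 cardiomyocyte markers fell below 1 TPM in either library, and they summed to 24607 and 19584 TPM. Markers of some other tissues summed to more in replicate 2. Thymocyte markers summed to 18.7 TPM in replicate 1 and 166 TPM in replicate 2. Liver markers summed to 51.3 and 222 TPM, of which Trf alone held 31.5 and 104 TPM. The source of this RNA was not tested. In whole-heart RNA, a larger number of cells of a type and more RNA per cell cannot be told apart, and 2 chains at like levels need not be in the same cell.

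At 1 TPM or more in both libraries, 26 of the 38 chains were detected (68.4%), against 58.2% of all protein-coding genes. The detected chains were 12 of 18 integrin alpha, 6 of 9 integrin beta and 8 of 11 laminin chains. A mean of 10 TPM or more was reached by 14 chains. These were Itgb1, Lama4, Lamb1, Lamc1, Itgb5, Itga5, Lamb2, Itga6, Itgav, Lama5, Itga1, Lama2, Itga8 and Itga9 in falling order. Of the 12 chains not detected, 6 were leukocyte integrins. The other 6 were Itga10, Itga11, Itgb6, Lama1, Lama3 and Lamc3. Values below are mean ± SD of the 2 libraries (n = 2) or the value of replicate 1 followed by that of replicate 2.

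**Figure D1:**
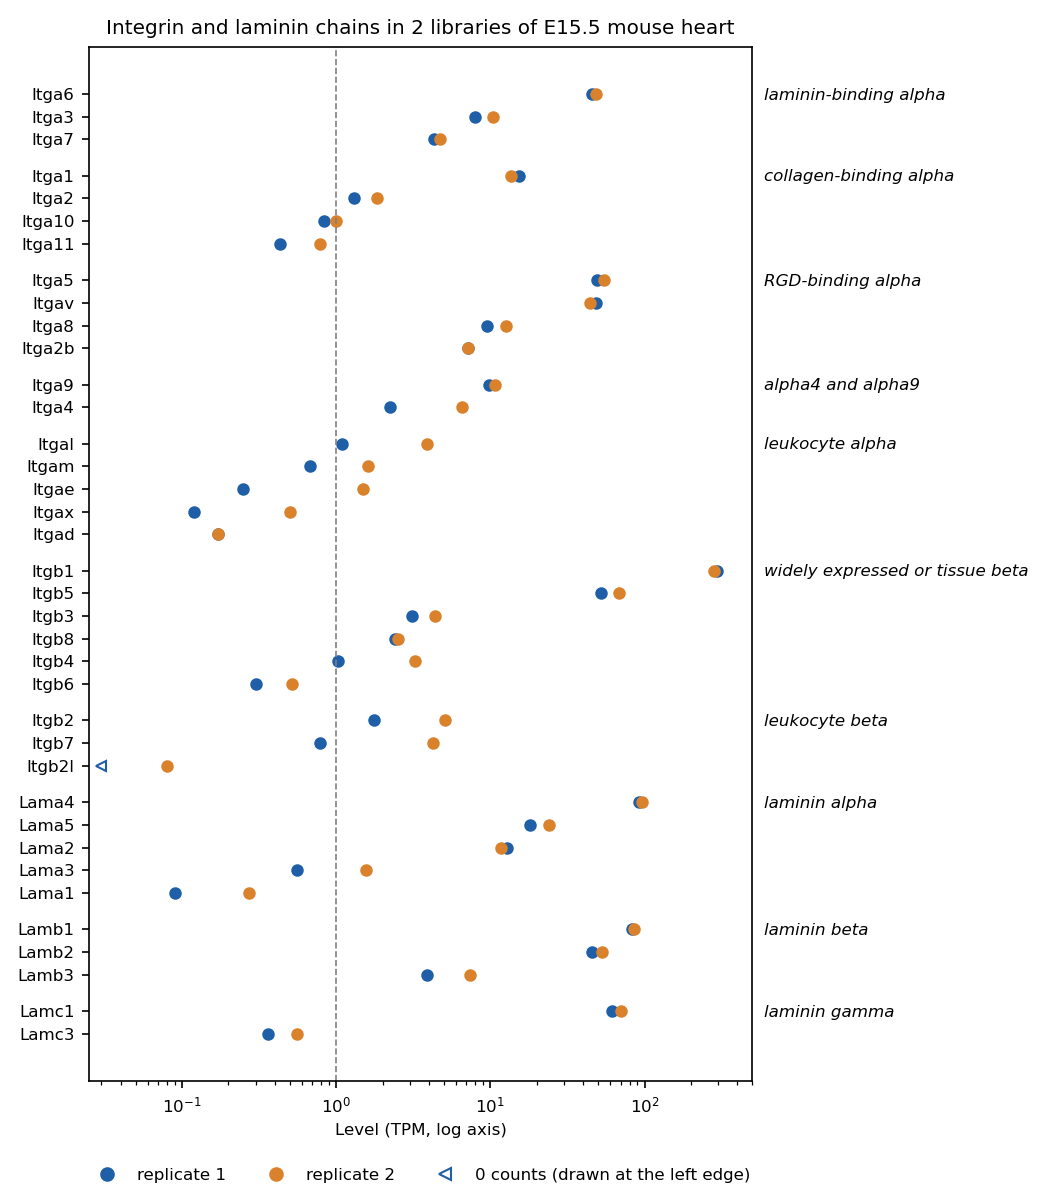
Level of 37 chains in TPM on a log axis, grouped by role, with 1 point per library and a dashed line at 1 TPM. Itgb1 lies near 290 TPM in both libraries, and 6 of the 8 leukocyte chains are left of the line in replicate 1, with Itgb2l at 0 counts there.

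Among the beta chains, Itgb1, the partner of 12 alpha chains, was the most abundant of all members. It stood at 295 TPM in replicate 1 and 282 TPM in replicate 2 (gene on chromosome 8 of mm10, 128685654 to 128733200). Its share of the summed beta chain TPM was 79.4% ± 4.56. Itgb5, which pairs with Itgav and binds vitronectin, followed at 52.6 and 68.0 TPM, with 16.6% ± 2.59 of the sum. The log2 ratio of Itgb1 over Itgb5, computed with 0.1 TPM added to each, was 2.27 ± 0.31, a 4.82-fold difference in length-normalised level.

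The remaining beta chains were at least an order of magnitude lower. Itgb3, the platelet and endothelial partner of Itga2b and Itgav, stood at 3.09 and 4.40 TPM, and the log2 ratio of Itgb5 over Itgb3 was 3.98 ± 0.09. Itgb8, a partner of Itgav that takes part in the activation of latent TGF-beta, was at 2.41 and 2.51 TPM. Itgb4, the hemidesmosome chain of epithelia, was at 1.03 and 3.23 TPM, and its range overlapped that of Itgb8. Itgb6, an epithelial partner of Itgav, was at 0.30 and 0.52 TPM. The leukocyte chains Itgb2 and Itgb7 overlapped with Itgb3 and Itgb8 in the order of levels, and Itgb2l, a relative of Itgb2, had 0 counts in replicate 1 and 6 in replicate 2. A count of 0 allows up to 0.0449 TPM of Itgb2l in replicate 1.

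Itgb1 is spliced to alternative cytoplasmic tails, the part that binds talin and kindlin. The coding ends of the widely expressed A form (Itgb1-201) and of the striated muscle D form (Itgb1-204) are shown because both were counted and they share all bases up to the last coding exon. Lower case marks the last 24 shared bases and capitals mark everything from the first differing base to the end of the coding sequence, on the plus strand of chromosome 8 of mm10. The capitals lie at chr8:128732023-128732085 for Itgb1-201 and at chr8:128726983-128727054 for Itgb1-204.
Itgb1-201: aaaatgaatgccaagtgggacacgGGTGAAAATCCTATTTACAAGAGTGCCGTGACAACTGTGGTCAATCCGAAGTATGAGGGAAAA
Itgb1-204: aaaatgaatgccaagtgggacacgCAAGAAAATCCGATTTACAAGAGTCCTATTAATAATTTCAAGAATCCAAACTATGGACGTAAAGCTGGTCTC

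The A form held nearly all of the Itgb1 signal. It stood at 277 TPM in replicate 1 and 274 TPM in replicate 2, with 33367 and 29481 expected counts. The D form stood at 17.7 and 7.51 TPM, with 352 and 133 expected counts. Of the TPM of the 2 forms, the D form made up 6.02% in replicate 1 and 2.67% in replicate 2, with a mean of 4.34% ± 2.36. Cardiomyocyte markers also summed to less in replicate 2, as given above, and their part in this share was not tested. Itgb1-204 is annotated as a fragment of 711 bases with an incomplete start, against 3815 bases for Itgb1-201, so its level rests on how reads from the shared exons were divided.

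Of the 3 laminin-binding alpha chains, Itga6 led with 45.6 and 48.7 TPM, followed by Itga3 with 8.0 and 10.3 TPM. Itga7, the chain typical of adult striated muscle, was lowest with 4.29 and 4.72 TPM. No library of one chain overlapped with those of the next. The log2 ratio of Itga6 over Itga3 was 2.36 ± 0.19, and that of Itga7 over Itga6 was -3.36 ± 0.03. Only 44.3% of the Itga6 TPM, in each library, lay in a complete coding transcript, Itga6-201, which stood at 20.2 and 21.6 TPM. A processed transcript of 2721 bases, Itga6-203, held 33.2% and 35.5%. The level of Itga6-201 thus rests on how reads were divided between these models. On complete coding transcripts, an alternative chosen after seeing the data, the Itga6 over Itga3 ratio was 1.33 and that of Itga7 over Itga6 was -2.19.

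Itga6 and Itga3 also end in alternative tails, called A and B, and their coding ends are shown because the 2 genes differed in which forms were counted. Capitals again run from the first base at which the forms of a gene differ. For Itga6 they lie on the plus strand at chr2:71853539-71853638 (A, Itga6-201) and chr2:71855859-71856012 (B, Itga6-202). For Itga3 they lie on the minus strand at chr11:95046483-95046588 (A, Itga3-201) and chr11:95045611-95045761 (B, Itga3-203), all in mm10.
Itga6-201: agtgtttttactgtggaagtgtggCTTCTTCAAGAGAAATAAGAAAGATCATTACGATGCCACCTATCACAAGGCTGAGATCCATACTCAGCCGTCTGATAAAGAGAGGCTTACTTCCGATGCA
Itga6-202: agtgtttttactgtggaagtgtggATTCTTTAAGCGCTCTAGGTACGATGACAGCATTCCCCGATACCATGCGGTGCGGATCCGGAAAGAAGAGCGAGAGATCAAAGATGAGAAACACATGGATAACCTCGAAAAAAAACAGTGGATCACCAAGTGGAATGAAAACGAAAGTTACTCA
Itga3-201: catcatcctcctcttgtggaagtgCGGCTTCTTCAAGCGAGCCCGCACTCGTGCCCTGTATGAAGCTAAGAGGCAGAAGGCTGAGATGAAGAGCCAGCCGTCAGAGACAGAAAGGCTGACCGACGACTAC
Itga3-203: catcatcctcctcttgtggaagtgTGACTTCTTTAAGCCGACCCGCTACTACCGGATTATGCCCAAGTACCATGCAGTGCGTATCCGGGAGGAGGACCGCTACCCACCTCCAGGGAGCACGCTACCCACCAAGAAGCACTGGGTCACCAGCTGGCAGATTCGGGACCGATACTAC

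For Itga6, the A form had 2764 and 2633 expected counts while the B form was listed at 0 TPM in both libraries. For Itga3, the A form Itga3-201 stood at 5.66 and 6.54 TPM and the B form at 1.29 and 1.95 TPM. The B form thus made up 20.8% ± 3.12 of these 2 Itga3 transcripts, with 192 and 260 expected counts. Another complete coding transcript, Itga3-202, was at 0.11 and 1.07 TPM from 16.9 and 141 expected counts. Its tail was not compared, so the share does not cover all of Itga3. Itga7 had 1 quantified transcript, Itga7-201, so its forms could not be compared.

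Of the 4 collagen-binding alpha chains, Itga1 accounted for most of the signal, with 15.3 and 13.6 TPM. Itga2, the collagen receptor of platelets and epithelia, was at 1.3 and 1.84 TPM. Itga10, known from cartilage, was at 0.83 and 0.99 TPM, and Itga11, a receptor of fibroblasts, at 0.43 and 0.78 TPM. The order held without overlap between neighbours, and the log2 ratio of Itga1 over Itga11 was 4.41 ± 0.64. With a pseudocount of 1 TPM it was 3.27.

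The alpha chains that bind the RGD sequence of fibronectin and vitronectin included both of the remaining abundant chains. Itga5, the fibronectin receptor chain, stood at 49.1 and 54.7 TPM (chromosome 15, 103344286 to 103366763), all of it in a single complete coding transcript. Itgav stood at 48.5 and 44.3 TPM, and the log2 ratio of Itga5 over Itgav, 0.16 ± 0.20, was within the spread between the libraries. Of 18 chain pairs compared, this was the only one whose mean ratio did not exceed its SD.

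The Itgav level depended on 1 short transcript model. Itgav-205, a fragment of 463 bases with an incomplete start, held 74.7% of the gene's TPM in replicate 1 and 65.9% in replicate 2 from 428 and 308 expected counts. The complete coding transcripts of Itgav had 8.33 and 11.1 TPM. On these transcripts Itga5 exceeded Itgav by a log2 ratio of 2.42, and on counts without division by length by 1.43.

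Itga8, which binds nephronectin and fibronectin in mesenchyme and smooth muscle, was at 9.46 and 12.7 TPM, a log2 ratio of -2.23 ± 0.19 to Itga5. Itga2b, the platelet fibrinogen receptor chain, was at 7.19 and 7.18 TPM, and 41.7% and 44.0% of this lay in its complete coding transcript. Markers of megakaryocytes and platelets were likewise close between the libraries, with sums of 50.7 and 50.3 TPM. The log2 ratio of Itgb3 over its partner Itga2b was -0.94 ± 0.35 at the gene level. It turned to 0.25 on coding transcripts and to 0.65 without division by length, so the order of the 2 chains depended on the processing.

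Itga9, which binds tenascin-C and VCAM1, was at 9.75 and 10.8 TPM, and Itga4, which binds VCAM1 and fibronectin on leukocytes and in the epicardium, at 2.23 and 6.58 TPM. The log2 ratio of Itga9 over Itga4 was 2.08 in replicate 1 and 0.71 in replicate 2. Of the Itga4 TPM, 36.8% and 42.1% lay in the complete coding transcript, and on that basis the mean ratio was 2.44 in place of 1.39.

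Summed over the 18 alpha chains, the level was 215 ± 14.6 TPM, against 364 ± 8.97 TPM for the 9 beta chains. The 12 alpha partners of Itgb1 summed to 195 TPM in replicate 1 and 210 TPM in replicate 2, below Itgb1 itself in each library. The 9 of these that pair with no other beta chain in the list of dimers summed to 98.5 and 110 TPM. In the complete coding transcripts the 12 partners summed to 125 and 141 TPM.

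Among the laminins, Lama4, Lamb1, Lamc1 and Lamb2 stood above the rest. Lama4, the alpha chain of endothelial and mesenchymal basement membranes, was at 91.7 and 96.2 TPM (chromosome 10, 38965515 to 39110188). It made up 73.1% ± 1.64 of the laminin alpha TPM. Lama5, the broadly expressed alpha chain of mature basement membranes, was at 18.2 and 23.9 TPM, and Lama2, the chain that surrounds muscle fibres, at 12.9 and 11.7 TPM. Lama3, an epithelial chain, was at 0.56 and 1.57 TPM, and Lama1, the chain of early embryonic basement membranes, at 0.09 and 0.27 TPM from 29 and 73 counts.

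The laminin alpha chains kept this order in both libraries without overlap. The log2 ratio of Lama4 was 2.17 ± 0.23 over Lama5 and 2.93 ± 0.15 over Lama2, and Lama5 exceeded Lama1 by 6.30 ± 0.40. Much of the TPM of Lama5 and Lama2 was in transcripts that are not coding. Complete coding transcripts held 26.9% and 31.6% of the Lama5 TPM, 37.2% and 41.7% of the Lama2 TPM and 64.4% and 64.5% of the Lama4 TPM. A short retained-intron model, Lama4-207, held 28.8% and 29.4% of Lama4. On complete coding transcripts Lama4 made up 83.2% of the alpha chains, and its log2 ratio was 3.29 over Lama5 and 3.62 over Lama2. The Lama5 over Lama1 ratio was then 4.55, and it was 4.22 with a pseudocount of 1 TPM.

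Lama3 is made as a long and a short form from separate promoters. The short Lama3-202 made up 26.8% of the TPM of the 2 forms in replicate 1 and 55.1% in replicate 2, from 26.7 and 137 expected counts. The long Lama3-201 was at 0.41 and 0.71 TPM.

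Lamb1 was at 82.6 and 85.6 TPM and Lamb2, the chain of synaptic and vascular basement membranes, at 46.0 and 53.1 TPM, a log2 ratio of 0.77 ± 0.11. Lamb3, the epithelial beta chain, was at 3.90 and 7.39 TPM. Lamc1, the common gamma chain, was at 61.4 and 70.0 TPM, and the gamma chain Lamc3 at 0.36 and 0.56 TPM. The log2 ratio was -0.36 ± 0.10 for Lamc1 over Lamb1 and 6.90 ± 0.23 for Lamc1 over Lamc3.

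Here too a fragment weighed on a level. Lamc1-204, a model of 1447 bases with an incomplete start, held 41.8% and 38.4% of the Lamc1 TPM, and the complete Lamc1-201 was at 35.2 and 42.3 TPM. On complete coding transcripts Lamc1 over Lamb1 was -0.89 and Lamc1 over Lamc3 was 6.33. Summed by kind at the gene level, laminin alpha chains reached 129 ± 7.18 and beta chains 139 ± 9.61 TPM. On complete coding transcripts the sums were 72.9 ± 4.91 and 115 ± 13.4 TPM.

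**Figure D2:**
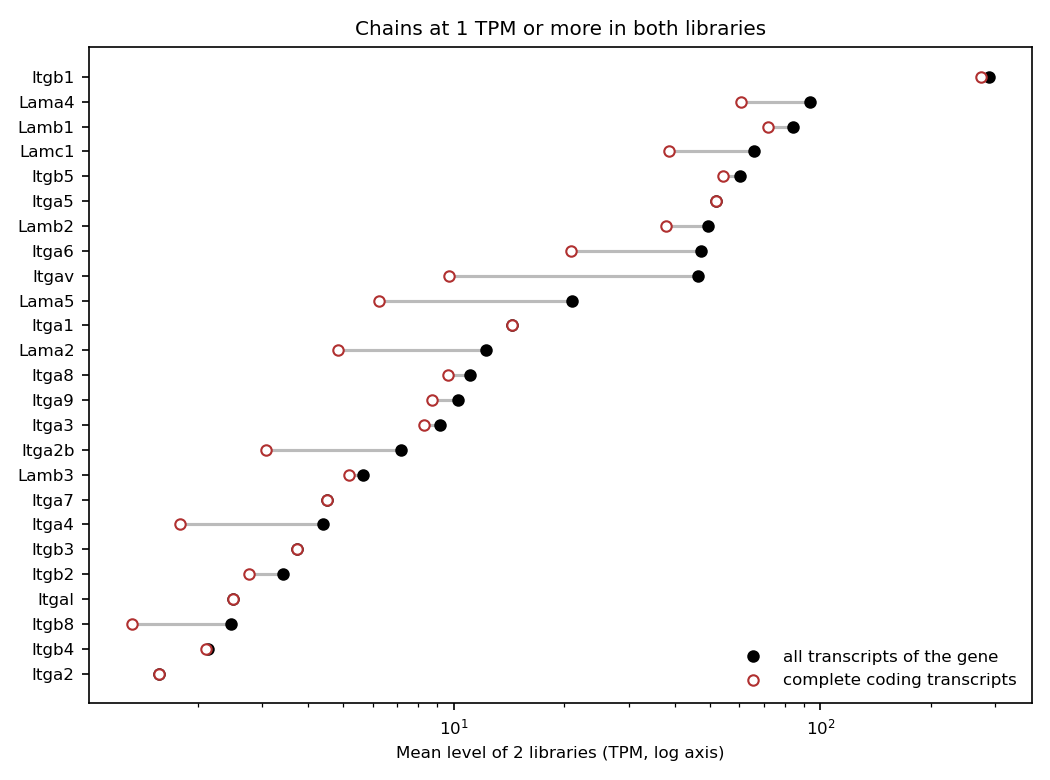
Mean TPM of 25 detected chains over all transcripts of the gene (filled) and over complete coding transcripts (open), on a log axis, with a line joining the 2 values. Itga5 and Itga1 do not move, whereas Itgav falls from 46.4 to 9.72 TPM and Lama5 from 21.1 to 6.24 TPM.

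Of the 26 detected chains, 6 had under 50% of their TPM in complete coding transcripts in both libraries, namely Itga6, Itgav, Itga2b, Itga4, Lama5 and Lama2. On complete coding transcripts, 25 of the 38 chains reached 1 TPM in each library.

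The level of the lower chain of each known combination gives which ones had all their parts in the RNA. It says nothing of whether the proteins met in 1 cell. Of 24 integrin dimers, 16 had their lower chain at 1 TPM or more in both libraries, and 7 had it at a mean of 10 TPM or more. The fibronectin receptor Itga5-Itgb1 led with a lower chain at 51.9 ± 3.92 TPM, followed by the laminin receptor Itga6-Itgb1 at 47.2 ± 2.23 TPM. The vitronectin receptors Itgav-Itgb1 and Itgav-Itgb5 shared Itgav as the lower chain at 46.4 ± 2.93 TPM. The collagen receptor Itga1-Itgb1 was at 14.5 ± 1.24 TPM, Itga8-Itgb1 at 11.1 ± 2.31 TPM and Itga9-Itgb1 at 10.3 ± 0.735 TPM. With complete coding transcripts, 15 dimers had the lower chain at 1 TPM or more in both libraries and 3 at a mean of 10 TPM or more, those of Itgb1 with Itga5, Itga6 and Itga1. The dimers of Itgav with Itgb1 or Itgb5 were then at 8.33 and 11.1 TPM, below Itga1-Itgb1. At the gene level, in all 12 dimers of Itgb1 the alpha chain was the lower one in both libraries.

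Of 14 laminin trimers, the 6 made of Lama4, Lama5 or Lama2 with Lamc1 and either Lamb1 or Lamb2 had every chain at 10 TPM or more. Counting complete coding transcripts alone, 2 of these had a lowest chain with a mean of 10 TPM or more, those of Lama4, while Lama5 was at 4.90 and 7.57 TPM and Lama2 at 4.79 and 4.87 TPM. At the gene level, in Lama4-Lamb1-Lamc1 the lowest chain was Lamc1 at 65.7 ± 6.07 TPM, and in Lama4-Lamb2-Lamc1 it was Lamb2 at 49.5 ± 5.01 TPM. In the trimers of Lama5 and Lama2 the alpha chain was lowest, at 21.1 ± 4.05 and 12.3 ± 0.856 TPM. The 8 other trimers were limited by Lama3, Lama1 or Lamc3.

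**Figure D3:**
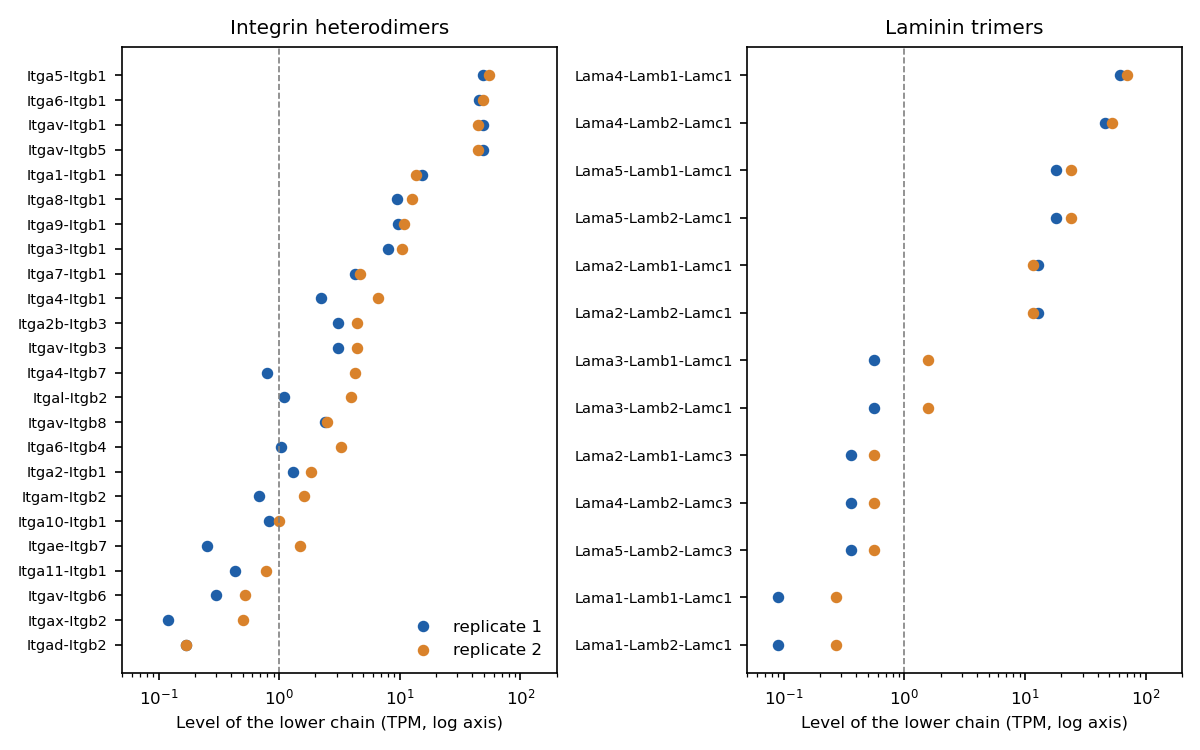
TPM of the lower chain of each of 24 integrin dimers and 13 laminin trimers on a log axis, with 1 point per library and a dashed line at 1 TPM. Dimers of Itgb1 with Itga5 or Itga6 and the trimers of Lama4 with Lamc1 are at the top, and every trimer drawn with Lama3, Lama1 or Lamc3 has a point left of the line.

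The leukocyte integrins were Itgad, Itgae, Itgal, Itgam, Itgax, Itgb2, Itgb2l and Itgb7. They were compared with 8 integrins listed as mesenchymal, Itga1, Itga5, Itga8, Itga9, Itga11, Itgav, Itgb1 and Itgb5. Whole-heart RNA does not place the latter in mesenchyme, and Itgb1 among them is widely expressed. The leukocyte chains had a median of 0.465 TPM in replicate 1 and 1.56 TPM in replicate 2, and the mesenchymal chains 31.9 and 28.9 TPM. The difference of the median log2(TPM + 0.1) was 5.71 in replicate 1 and 3.90 in replicate 2, or 4.80 ± 1.28. Of the leukocyte chains 2 were detected, Itgal and Itgb2, and of the mesenchymal chains all but Itga11. The 2 sets overlapped only through Itga11, since every other mesenchymal chain was above the highest leukocyte chain of its library. The leukocyte chains summed to 4.86 TPM in replicate 1 and 17.1 TPM in replicate 2, the mesenchymal ones to 480 and 487 TPM. Itgb1 alone held 295 and 282 TPM of the mesenchymal sums.

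Inside the leukocyte set, Itgb2, the common beta chain of most of these receptors, was highest with 1.76 and 5.08 TPM. Itgal, its partner on lymphocytes, was at 1.09 and 3.91 TPM and Itgam, its partner on macrophages and granulocytes, at 0.68 and 1.62 TPM. The log2 ratio of Itgam over Itgal was -0.92 ± 0.43, and -2.48 on complete coding transcripts, which held 32.4% and 23.5% of the Itgam TPM. A transcript of 4310 bases held 55.8% and 59.9% of Itgam. It is absent from GENCODE M21, the source of transcript types, and was therefore not counted as complete. The value of -2.48 thus depends on the annotation. Itgax was at 0.12 and 0.50 TPM, and Itgad at 0.17 TPM in both libraries from 3 and 9.12 counts. Itgam, Itgax and Itgad are neighbouring relatives on chromosome 7 between 128062640 and 128223816, so reads from similar stretches could have been divided among them. Itgb7, the gut-homing and mast cell chain, was at 0.79 and 4.23 TPM, and Itgae, its partner on epithelial T cells, at 0.25 and 1.49 TPM. The ranges of neighbours overlapped from Itgal down to Itgad and for Itgb2 and Itgb7, whose log2 ratio was 0.66 ± 0.57. That ratio on complete coding transcripts was 1.06 in replicate 1 and -0.16 in replicate 2, where Itgb7 at 4.23 TPM and Itgal at 3.90 TPM were above Itgb2 at 3.77 TPM.

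The members did not behave alike between the libraries. Ratios of replicate 2 over replicate 1 were taken on rounded counts after TMM scaling, which matches the bulk of genes, for the 36 members with 10 counts or more in both libraries. Itgb2l and Itgad did not reach that minimum. More than 1.5-fold higher in replicate 2 were 12 of the 36 members (33.3%), against 11.2% of the 17054 genes with as many counts. More than 1.5-fold lower were 0 of the 36, against 4.76% of genes. The median log2 ratio was 0.22 for the members and -0.02 for all genes. With 1 library on each side the ratio has no replicate check and carries no p-value, and the intervals cover counting error only. Scaled by spike-ins, which shifts the median gene to -0.85, 5 members were past 1.5-fold higher and 18 past 1.5-fold lower. On that scale 3.24% of all genes were past 1.5-fold higher and 76.7% lower, so directions are relative to the bulk of genes.

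All 6 leukocyte chains with enough counts were among the 12, with a median log2 ratio of 1.72. Itgae was 5.10-fold higher (95% exact interval 3.44 to 7.81, 30 and 161 counts) and Itgb7 4.55-fold (3.48 to 6.03, 66 and 316 counts). Itgax was 3.61-fold, Itgal 3.02-fold, Itgb2 2.32-fold and Itgam 1.85-fold higher. Itga4, which also serves leukocytes as the partner of Itgb7, was 2.73-fold higher (2.42 to 3.10, 348 and 999.8 counts). Of the 8 mesenchymal chains, 1 passed, Itga11 at 1.54-fold (1.13 to 2.11), which is near the 11.2% of all genes that passed. The median log2 ratio of the 8 mesenchymal chains was 0.02.

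Thymocyte markers and some leukocyte markers differed in the same direction. Of the 10 thymocyte markers, 7 had enough counts, and all 7 were past 1.5-fold higher, with a median log2 ratio of 3.24. Of all genes, 11.2% were past it, and the marker lists were chosen with earlier results of these data known. Cd8a, Cd4 and Dntt had fewer than 10 counts in replicate 1. Cd4 was low at 0.05 and 0.56 TPM, and Dntt was at 0.05 TPM in both. General leukocyte and macrophage markers summed to 212 and 379 TPM, and 4 of 10 passed, with the pan-leukocyte Ptprc at 2.16 and 10.6 TPM and the macrophage gene C1qa at 25.4 and 30.2 TPM. No marker of these 2 lists was at 0 in both libraries. Their part in the difference of the leukocyte chains was not tested.

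The other members among the 12 were chains of epithelia and Lama1. Itgb4 was 2.58-fold higher in replicate 2 (2.19 to 3.06), Itgb6 2.02-fold (1.23 to 3.39), Lama3 2.01-fold (1.67 to 2.43) and Lama1 2.39-fold (1.54 to 3.82). Lamb3, a partner of Lama3, was at a ratio of 1.41 and within 1.5-fold. All 10 markers of lung and other epithelia were past 1.5-fold higher, against 11.2% of all genes, with sums of 225 and 768 TPM. So were 6 of 7 markers of basal epithelium of skin and thymus, with sums of 11.7 and 75.4 TPM. The part of these markers in the ratios of Itgb4, Itgb6, Lama3 and Lama1 was not tested.

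The abundant chains were close between the libraries. The scaled count ratio of replicate 2 over replicate 1 was 0.945 for Itga5 (0.914 to 0.977), 0.929 for Itga6, 1.03 for Itgav, 0.890 for Lama4, 0.925 for Lamb1 and 1.01 for Lamc1. The lowest ratios were those of Itga1 at 0.752 (0.712 to 0.794), Lama2 at 0.825 and Itgb1 at 0.835 (0.822 to 0.848). Cardiomyocyte markers had a median log2 ratio of -0.44, endothelial markers 0.01 and fibroblast markers -0.16. TPM and count ratios are on different scales and can differ, as for Lamb3, whose TPM was 3.90 and 7.39 with a scaled count ratio of 1.41. Its effective length was 4087 bases in replicate 1 and 3574 in replicate 2, and the TPM of 1 read also differed between the libraries, as given above.

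**Figure D4:**
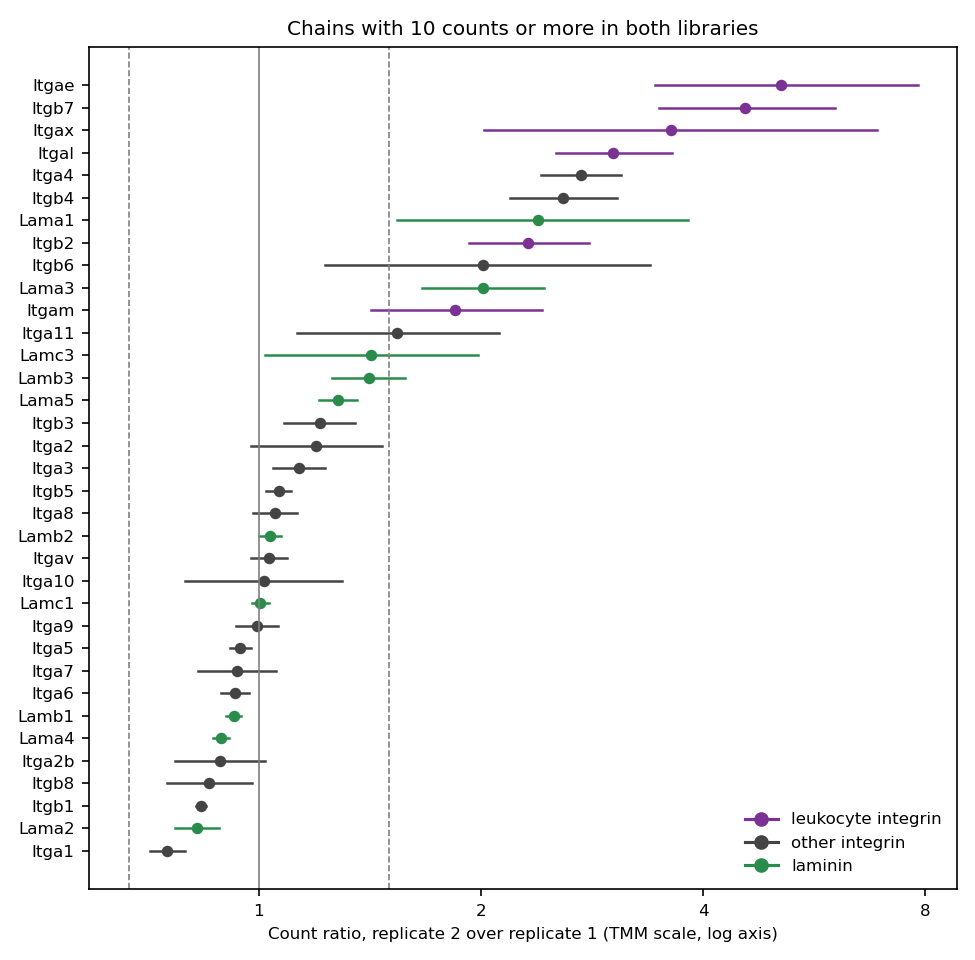
Ratio of scaled counts, replicate 2 over replicate 1, for 35 chains with 10 counts or more in both libraries, with 95% exact counting intervals on a log axis and dashed lines at 1.5-fold in each direction. The 6 leukocyte integrins (purple) are all right of the upper line, from Itgam at 1.85 to Itgae at 5.10, and no chain is left of the lower line.

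The 250 bases before the start of Itgam, Itgb7 and Itgb1 are shown because the first 2 were past 1.5-fold higher in replicate 2 and Itgb1 was not. They are RefSeq promoter windows on GRCm38.p6 (mm10), at chr7:128062390-128062639 on the plus strand, chr15:102231936-102232185 on the minus strand and chr8:128685404-128685653 on the plus strand. Capitals mark GAGGAA, a core bound by the myeloid factor PU.1, and GGGCGG, the GC box bound by Sp factors, each searched on both strands as TTCCTC and CCGCCC. The 2 motifs do not overlap in these windows.
Itgam: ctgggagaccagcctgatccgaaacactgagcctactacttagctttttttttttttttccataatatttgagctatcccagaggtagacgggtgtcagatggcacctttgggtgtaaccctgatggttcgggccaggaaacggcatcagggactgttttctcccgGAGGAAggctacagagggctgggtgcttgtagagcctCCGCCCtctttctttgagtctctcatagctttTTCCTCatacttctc
Itgb7: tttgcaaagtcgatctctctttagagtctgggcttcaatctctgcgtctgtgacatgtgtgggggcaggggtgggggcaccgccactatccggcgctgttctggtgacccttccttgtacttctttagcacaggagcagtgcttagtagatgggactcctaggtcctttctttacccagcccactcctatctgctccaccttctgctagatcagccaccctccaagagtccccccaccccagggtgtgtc
Itgb1: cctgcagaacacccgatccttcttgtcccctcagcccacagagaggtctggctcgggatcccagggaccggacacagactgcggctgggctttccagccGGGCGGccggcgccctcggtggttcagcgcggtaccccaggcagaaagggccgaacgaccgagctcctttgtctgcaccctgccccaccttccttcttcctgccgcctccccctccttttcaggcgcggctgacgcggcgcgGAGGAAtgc

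Itgam held GAGGAA at 2 places and a GC box at 1, Itgb1 held each at 1 place, and the Itgb7 window held neither. Among windows not shown, the leukocyte chain Itgb2l held GAGGAA at 2 places and Itgax at 0. The other leukocyte chains, Itgad, Itgae, Itgal and Itgb2, had no matched window and were not searched. Itgav and Itga2b, both within 1.5-fold, held it at 2 places each. Of all 32851 promoter windows, 23.3% held GAGGAA and 32.7% a GC box. A match describes the letters of the window and does not show that a factor binds there.

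Among the genes that work with these chains, most adaptors and the basement membrane partners stayed within 1.5-fold between the libraries. The other integrin ligands did so less often. Of all genes, 11.2% were past 1.5-fold higher in replicate 2 and 4.76% lower. Of 23 integrin activators and adaptors, 22 were at 1 TPM or more in both, and the highest was Ilk, the integrin-linked pseudokinase, at 340 ± 34.3 TPM. The lowest and the only one not detected was Fermt1, the epithelial kindlin, at 0.25 and 3.32 TPM. Fermt2, the kindlin of heart and mesenchyme, was at 183 and 145 TPM, and Tln1, talin, at 63.9 and 62.6 TPM. The 3 that passed 1.5-fold, all higher in replicate 2, were Fermt1, the blood cell kindlin Fermt3 and the blood cell parvin Parvg, with log2 ratios of 2.68, 1.22 and 2.65. The list's median log2 ratio was -0.05.

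All 11 basement membrane partners of laminin were detected and none passed 1.5-fold in either direction, with a median log2 ratio of 0.07. They ranged from Ntn4 at 1.85 ± 0.389 TPM to Bcam, a receptor for Lama5, at 304 ± 11.8 TPM. The collagen Col4a1 was at 151 ± 11.1 TPM, Nid1, nidogen, at 64.6 ± 12.1 TPM and Dag1, dystroglycan, at 112 ± 8.17 TPM. Of 14 other integrin ligands, 13 were detected, and the highest was Postn, periostin, at 340 ± 26.3 TPM. The one below the threshold was Madcam1, the ligand of Itga4-Itgb7, at 0.91 and 1.2 TPM. Fn1, fibronectin, was at 155 ± 34.8 TPM. Of the 14 ligands 6 were past 1.5-fold higher in replicate 2, against 11.2% of all genes, and 0 lower, against 4.76%. Their median log2 ratio was 0.27. They were Vtn, Cdh1, Npnt, Icam1, Tnc and Spp1, of which Spp1, osteopontin, went from 20.0 to 116 TPM and Cdh1, the epithelial ligand of Itgae-Itgb7, from 2.96 to 14.3 TPM.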

How the data were processed

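RNA-seq of whole mouse hearts at embryonic day 15.5 was taken from 2 libraries of separate pools. Per the file headers, the authors deposited expected counts, TPM and a posterior mean TPM per gene, and expected counts, TPM and the percent of a gene's TPM (IsoPct) per transcript, on mm10 with GENCODE M4. The aligner, the quantifier and the strand setting were not given in the sources used here. Reads of overlapping genes on opposite strands may therefore not be told apart. The labels call the libraries total RNA while the linked kit primes with oligo(dT).

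Gene IDs without version were matched to GENCODE M21 for symbols and transcript types. Members, chain lists, dimers, trimers and marker lists were chosen with earlier results of these data known. Members are named, except 1 that is in the counts but is not reported here, and of the other lists the highest and lowest members, those past 1.5-fold in lists where these were few, and some chosen after their values were seen. Levels are TPM as deposited, and pairs are log2 ratios with a pseudocount of 0.1 TPM. Detection means 1 TPM in both libraries. Library ratios used rounded expected counts, edgeR 4.0.16 TMM factors in R 4.3.3, a minimum of 10 counts in both and a 1.5-fold threshold over all Ensembl genes. The calculation was checked on simulated counts, with as many genes changed up as down and no variation between pools. That check does not cover differences between pools such as those found here. Count ratios have exact 95% intervals (scipy 1.17.1), a count of 0 a floor of 3 counts per library, and both cover counting error only. No p-values were computed, since with 2 libraries the smallest p an exact sign-flip test allows is 0.5. The SD is between 2 pools. Alternatives were other pseudocounts, thresholds and scalings (DESeq2 1.42.0, totals, spike-ins), levels without length, posterior mean TPM, protein-coding transcripts, leaving out each library and, added after seeing the data, complete coding transcripts. Complete means annotated in GENCODE M21 as protein-coding with no missing end. Transcripts absent from M21, as found for Itgam and Lamb1, do not count as coding or complete. Promoters came from a RefSeq table on GRCm38.p6. The part after the start was left out.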

Additional observations from a re-analysis of the deposited data

How the results depend on the processing

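The count of detected chains, 26, ran from 22 at 2 TPM to 36 at 10 counts, and from 26 to 30 with each library left out. The share of Itgb1 in the beta chains ran from 76.2% to 82.7% with each library left out, that of Lama4 in the laminin alpha chains from 72.0% to 74.3%, and the difference between mesenchymal and leukocyte chains from 3.90 to 5.71. That difference was 3.81 with a pseudocount of 1 TPM and 4.16 over detected chains. The Lama4 share moved to 83.2% on protein-coding transcripts and on complete coding transcripts. Of the 18 pairs, 12 had the first chain higher in both libraries, and 13 without division by length. Which chain came first was set when the pairs were listed, so the count itself is not a result. The ratio of Itgb3 over Itga2b reversed to 0.25 on protein-coding and on complete coding transcripts and to 0.65 without division by length. With spike-in scaling 5 members were past 1.5-fold higher and 18 lower in replicate 2, in place of 12 and 0. Of all genes, 3.24% were then higher and 76.7% lower. Of 38 mean levels, 14 moved by more than their SD on complete coding transcripts, 10 on protein-coding transcripts and 5 as posterior mean TPM. The cause of these changes was not tested. No paired analysis was possible because the libraries form 1 group. At this depth chains with few counts, such as Itgad and Itgb2l, have no usable ratio.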
